A study of Mus musculus with 8 samples.

Results

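A set of 10 genes typical of neutrophils was followed in RNA-seq libraries of mouse microglia, the resident macrophages of the brain. They were picked by symbol in the deposited count table, and all 10 were found among its 55421 genes: Ngp, Camp, Ltf, Lcn2, Mmp8, Mmp9, Retnlg, S100a8, S100a9 and Cxcr2. All 10 also passed the filter on low counts that left 22089 tested genes. The microglia were isolated from brains of C57BL/6 mice, all 6 months old, in 4 groups with 2 libraries each. The cKO/AD group carried a conditional knockout of Calhm2 and had Alzheimer's disease (AD) by its labels, the WT/AD group was wild type with AD, the cKO group carried the knockout without AD, and the WT group had neither. Calhm2 belongs to the calcium homeostasis modulators, which form large-pore channels in the cell membrane. The labels name neither the AD model nor the Cre driver, and nothing in them ties the 2 libraries of a group to different mice. The p-values therefore rest on the spread between libraries, part of which may be technical. The design text of the series writes one of the AD groups as AT/AD, unlike the sample labels, which were used here.

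Neutrophils are short-lived white blood cells that leave the marrow for the blood and enter tissue during inflammation. Their granules are filled in an order that follows maturation. Primary granules with myeloperoxidase and elastase come first, then secondary granules with lactoferrin and cathelicidin, then tertiary granules with gelatinase. Most granule genes are transcribed in the marrow, so their mRNA is higher in immature than in circulating neutrophils, whereas S100a8, S100a9 and the chemokine receptor Cxcr2 are strongly transcribed in mature cells. The healthy brain tissue itself holds few neutrophils; they are found in its vessels, in the meninges and in the marrow of the skull. S100a8, S100a9, Lcn2 and Mmp9 can also be made by other cells, microglia and astrocytes among them. In bulk libraries, fewer cells of a type and less RNA per cell cannot be told apart.

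Library totals lay between 18218165 and 25774587 counts. Levels are CPM, counts scaled to the size of the library after correction by the trimmed mean of M values (TMM), given as mean ± SD over n = 2 libraries where a group is summarised. One library stood apart: cKO/AD replicate 1 had counts for 18693 genes and 4.73% mitochondrial counts, against 22088 genes in cKO/AD replicate 2, 24342 to 25988 genes in the 6 others, and 1.37% to 2.36% mitochondrial counts in the 7 others. The 2 cKO/AD libraries correlated at r = 0.843 over tested genes (log2 CPM), against 0.930 to 0.945 within the other groups. Calhm2 had 44 and 35 counts in cKO/AD against 412 and 347 in WT/AD. Without AD the counts of Calhm2 were 96 and 107 in cKO against 216 and 239 in WT, also in the direction the labels give. The microglial label was checked with the marker genes P2ry12, Tmem119, Cx3cr1, Csf1r, Sall1, Siglech, Gpr34, Olfml3 and Fcrls. All 9 were present in all 8 libraries, and together they reached 13621 and 18120.1 CPM in cKO/AD, 26557 and 27791 in WT/AD, 20032 and 23504 in cKO, and 33209 and 36602 in WT.

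The promoters of 4 of the genes are shown: Ngp, Ltf and Camp, 3 secondary granule genes on chromosome 9, and S100a8. Across the libraries these 4 followed the mean profile of the other members most closely (Pearson r between 0.861 and 0.945, described below). Each sequence is the 250 bases before the start of the gene in RefSeq on GRCm38.p6, read 5′ to 3′ on the strand of the gene. Capitals mark matches on either strand to 2 motifs. One is TTNNGNAA, a loose form of the site of the C/EBP factors, which drive granulocyte development. The other is GAGGAA, the core of sites of PU.1, a factor of all myeloid cells. The windows lie at chr9:110419558-110419807 (plus strand) for Ngp, chr9:111019042-111019291 (plus strand) for Ltf, chr9:109849457-109849706 (minus strand) for Camp and chr3:90668821-90669070 (plus strand) for S100a8.
Ngp: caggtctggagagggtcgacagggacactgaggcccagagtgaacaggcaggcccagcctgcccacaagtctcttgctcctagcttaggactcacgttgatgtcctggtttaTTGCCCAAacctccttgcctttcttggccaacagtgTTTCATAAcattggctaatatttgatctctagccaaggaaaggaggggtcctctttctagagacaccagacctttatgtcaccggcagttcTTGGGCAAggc
Ltf: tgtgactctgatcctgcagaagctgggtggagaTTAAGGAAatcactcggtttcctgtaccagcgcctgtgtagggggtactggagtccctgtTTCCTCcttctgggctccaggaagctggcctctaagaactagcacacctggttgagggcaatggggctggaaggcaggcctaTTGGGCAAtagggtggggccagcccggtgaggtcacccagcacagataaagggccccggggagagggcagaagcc
Camp: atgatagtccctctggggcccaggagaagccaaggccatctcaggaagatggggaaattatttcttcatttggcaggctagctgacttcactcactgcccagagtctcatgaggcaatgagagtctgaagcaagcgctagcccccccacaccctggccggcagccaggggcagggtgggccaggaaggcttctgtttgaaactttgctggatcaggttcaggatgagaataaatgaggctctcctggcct
S100a8: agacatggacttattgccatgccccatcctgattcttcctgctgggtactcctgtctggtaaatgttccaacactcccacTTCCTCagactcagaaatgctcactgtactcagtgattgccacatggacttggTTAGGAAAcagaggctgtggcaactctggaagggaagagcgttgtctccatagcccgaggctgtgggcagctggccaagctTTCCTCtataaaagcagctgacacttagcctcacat
Ngp had 3 C/EBP matches and 0 PU.1 matches, Ltf 2 and 1, S100a8 1 and 2, and Camp 0 and 0. Of the 9 genes with a promoter entry, 7 held the C/EBP motif and 5 the PU.1 motif, and no match of one overlapped a match of the other. Among all 32851 promoters of this length, 36.9% held the C/EBP motif and 23.3% the PU.1 motif. A match is a string of letters and no evidence of binding, and the absence of one says only that these letters are not in this window. The submitters' processing notes give mm9 as the build of the count table. Its identifiers, however, matched GENCODE M21, an annotation of GRCm38, with the version for 54587 of 55421 genes. The build of the count table was thus not settled here, and these positions belong to the RefSeq sequences alone.

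Together the 10 genes were most abundant in WT microglia preparations and lower in the 3 other groups. Their summed level was 1035 and 1195 CPM in cKO/AD, 1115 and 1189 in WT/AD, 1490 and 1437 in cKO, and 2953 and 3053 in WT. As a share of all counts this was 0.0903% and 0.119% in cKO/AD, 0.110% and 0.116% in WT/AD, 0.165% and 0.156% in cKO, and 0.294% and 0.299% in WT. The WT libraries lay above the other 6, the cKO libraries came next, and the AD groups overlapped each other. The places of WT and cKO did not rest on the most abundant gene alone, but the AD groups overlapped only with that gene included. Without Ngp the sum was 249 and 345 CPM in cKO/AD, 423 and 472 in WT/AD, 573 and 626 in cKO, and 1120 and 1299 in WT. Without Ngp and Ltf it was 161 and 136 CPM in cKO/AD, 194 and 183 in WT/AD, 202 and 176 in cKO, and 359 and 331 in WT, so that WT still lay highest while cKO and WT/AD overlapped. In both of these sums cKO/AD lay below all other libraries.

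**Figure D1:**
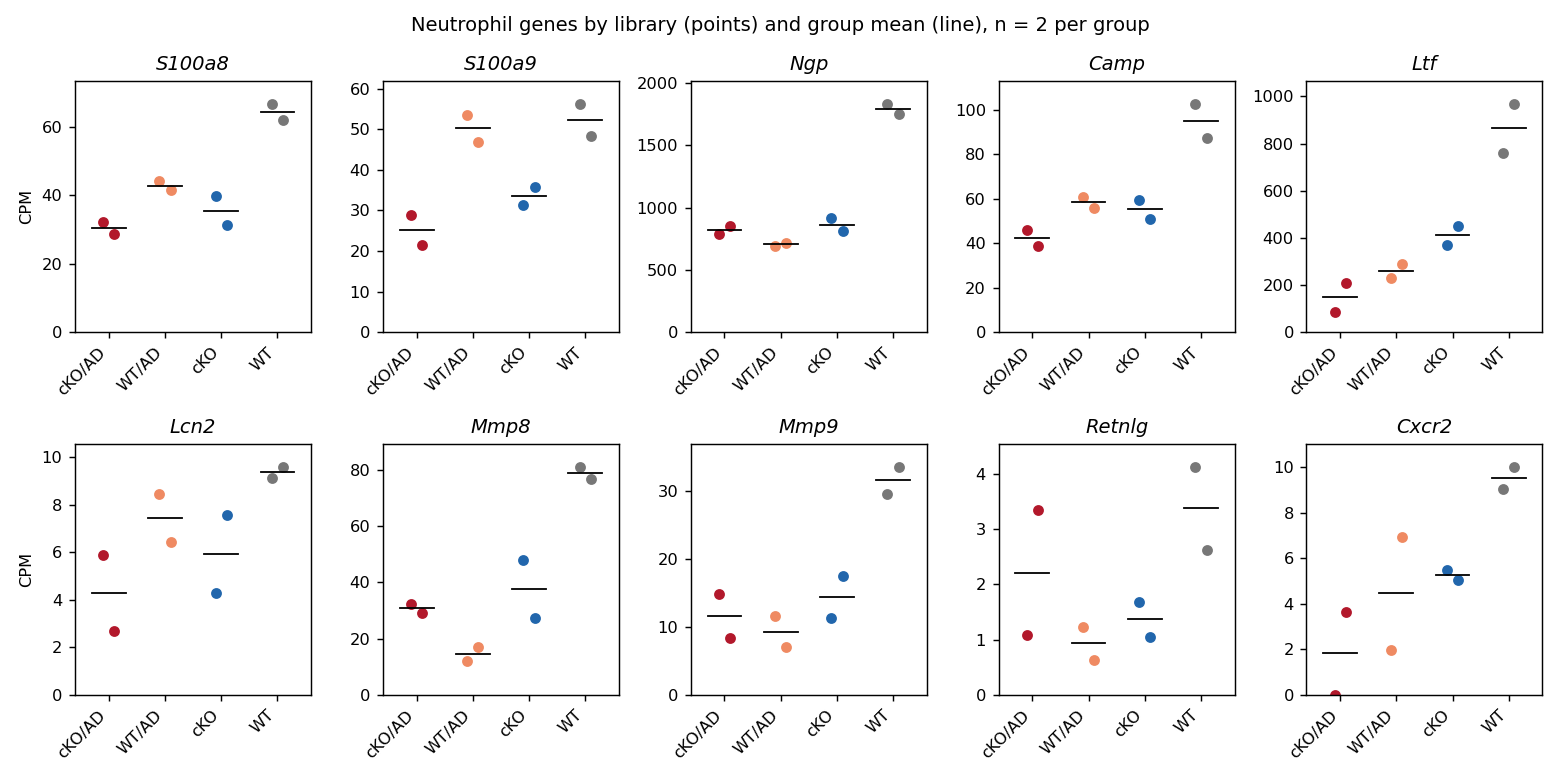
Level of each of the 10 neutrophil genes in CPM (linear axes) in the 8 libraries, with groups in the order cKO/AD, WT/AD, cKO and WT; points are libraries and lines are group means. Both WT libraries lie above all 6 others for Ngp, Ltf and Camp, while the 2 WT libraries for S100a9 (56.3 and 48.3 CPM) overlap the WT/AD libraries (53.5 and 46.9 CPM).

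Ngp, which encodes neutrophilic granule protein, a cystatin-like protein of secondary granules in the mouse, was the most abundant of the 10. It stood at 786 and 850.0 CPM in cKO/AD, 691 and 717 in WT/AD, 917 and 811 in cKO, and 1833 and 1754 in WT. Ranked by count, it was number 166 and 104 in the cKO/AD libraries, 117 and 118 in WT/AD, 65 and 75 in cKO, and 35 and 34 in WT. The 2 WT libraries stood well above all others, and the other 3 groups lay within a narrow band in which WT/AD was lowest.

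Ltf, the gene of lactoferrin, the iron-binding protein that defines secondary granules, had the widest range of the abundant genes. It stood at 87.7 and 209 CPM in cKO/AD, 230 and 289 in WT/AD, 372 and 450 in cKO, and 761 and 969 in WT. The 4 groups did not overlap, from cKO/AD at the bottom to WT at the top, although the 2 cKO/AD libraries differed by more than 2-fold.

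Camp encodes the cathelicidin precursor of the antimicrobial peptide CRAMP and is stored in the same granules. Its level was 46.0 and 38.7 CPM in cKO/AD, 60.6 and 56.1 in WT/AD, 59.7 and 50.9 in cKO, and 103 and 87.3 in WT. WT was highest again, the WT/AD and cKO libraries overlapped, and both cKO/AD libraries were lowest.

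Lcn2 encodes lipocalin 2, which binds bacterial siderophores. It was scarce, with 5.90 and 2.68 CPM in cKO/AD, 8.46 and 6.45 in WT/AD, 4.31 and 7.59 in cKO, and 9.12 and 9.62 in WT. Only the WT libraries lay outside the range of the rest.

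Mmp8, the neutrophil collagenase, and Mmp9, the gelatinase of tertiary granules, are secreted matrix proteases. Mmp8 was at 32.5 and 29.0 CPM in cKO/AD, 12.1 and 16.9 in WT/AD, 48.1 and 27.4 in cKO, and 81.2 and 76.9 in WT. Mmp9 was at 14.8 and 8.30 CPM in cKO/AD, 11.6 and 7.01 in WT/AD, 11.3 and 17.5 in cKO, and 29.5 and 33.5 in WT. Mmp8 thus differed from Ltf and Camp in its lowest group, which was WT/AD with no overlap with any other, whereas Mmp9 overlapped among the 3 groups below WT.

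The alarmin genes S100a8 and S100a9 encode the subunits of calprotectin, the main cytosolic protein of neutrophils. S100a8 was at 32.1 and 28.8 CPM in cKO/AD, 44.1 and 41.6 in WT/AD, 39.8 and 31.2 in cKO, and 66.8 and 62.1 in WT. S100a9 was at 29.0 and 21.6 CPM in cKO/AD, 53.5 and 46.9 in WT/AD, 31.4 and 35.8 in cKO, and 56.3 and 48.3 in WT. For both genes the 4 knockout libraries lay below the 4 Calhm2-intact ones. Within the intact pair they differed: WT stood clear above WT/AD for S100a8, while the WT/AD and WT libraries overlapped for S100a9. The cKO/AD and cKO libraries overlapped for S100a8 and did not for S100a9.

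Retnlg, a resistin-like gene of mouse granulocytes, and Cxcr2, the receptor for the chemokines that call neutrophils out of the marrow and into tissue, were the scarcest. Retnlg was at 1.08 and 3.35 CPM in cKO/AD, 1.23 and 0.633 in WT/AD, 1.68 and 1.05 in cKO, and 4.13 and 2.62 in WT. Cxcr2 had 0 counts in cKO/AD replicate 1, where 3 counts would be 0.170 CPM, and 82 counts or 3.66 CPM in cKO/AD replicate 2. Elsewhere Cxcr2 reached 1.99 and 6.93 CPM in WT/AD, 5.50 and 5.05 in cKO, and 9.03 and 10.02 in WT. For Retnlg the cKO/AD and WT libraries overlapped, and for Cxcr2 only WT stood clear of the rest.

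Because counts grow with transcript length, the genes were set against each other per kilobase of exon. Per length, Ngp led in every group, at 669, 576, 707 and 1468 CPM per kb in cKO/AD, WT/AD, cKO and WT. Ltf (251 CPM per kb), Camp (125), S100a9 (100.2) and S100a8 (92.9) followed in WT. In cKO/AD the means of the same 4 genes came within a narrow range. Camp was at 55.8, S100a9 at 48.4, S100a8 at 43.9 and Ltf at 42.9 CPM per kb. For Ltf this mean had an SD of 24.8 CPM per kb, so its libraries did not share that range. Mmp8 (12.7 CPM per kb in cKO/AD, 5.98 in WT/AD, 15.6 in cKO and 32.6 in WT) and Mmp9 (3.26, 2.62, 4.08 and 8.90 in the same groups) were lower, and Lcn2, Retnlg and Cxcr2 lay between 0.600 and 5.69 CPM per kb.

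**Figure D2:**
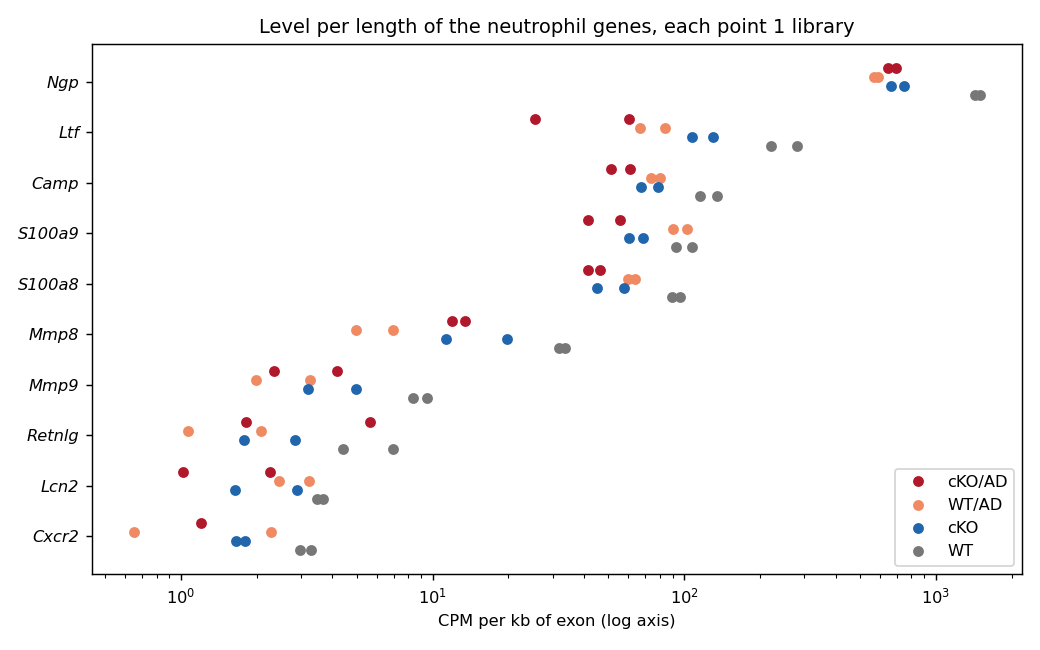
Level of the 10 neutrophil genes in CPM per kb of exon on a log axis, 1 point for each library, coloured by group. Ngp lies highest in all libraries, and Ltf is next in WT at a mean of 251 CPM per kb. In cKO/AD the mean of Ltf, 42.9 CPM per kb (SD 24.8), is near those of Camp, S100a8 and S100a9, with its libraries apart. The Cxcr2 library with 0 counts has no point on a log axis.

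The make-up of the signal differed between the groups as well as its size. Ngp supplied 75.9% and 71.1% of the members' counts in cKO/AD, 62.0% and 60.3% in WT/AD, 61.5% and 56.4% in cKO, and 62.1% and 57.4% in WT. Ltf supplied 8.47% and 17.5% in cKO/AD, 20.6% and 24.3% in WT/AD, 24.9% and 31.3% in cKO, and 25.8% and 31.7% in WT. The Ngp share was thus higher, and the Ltf share lower, in both cKO/AD libraries than in any other library. For each 100 CPM of Ngp there were 11.2 and 24.5 CPM of Ltf in cKO/AD, 33.2 and 40.3 in WT/AD, 40.5 and 55.5 in cKO, and 41.5 and 55.2 in WT. The cKO and WT values of this ratio overlapped almost fully. Mmp8 stood at 4.13 and 3.42 per 100 CPM of Ngp in cKO/AD, 1.75 and 2.36 in WT/AD, 5.25 and 3.38 in cKO, and 4.43 and 4.39 in WT, lowest in WT/AD. Camp had its highest ratio there, 8.77 and 7.82 per 100 CPM of Ngp, against 5.85 and 4.55 in cKO/AD, 6.51 and 6.27 in cKO, and 5.61 and 4.98 in WT. These ratios are descriptions and were not tested.

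**Figure D3:**
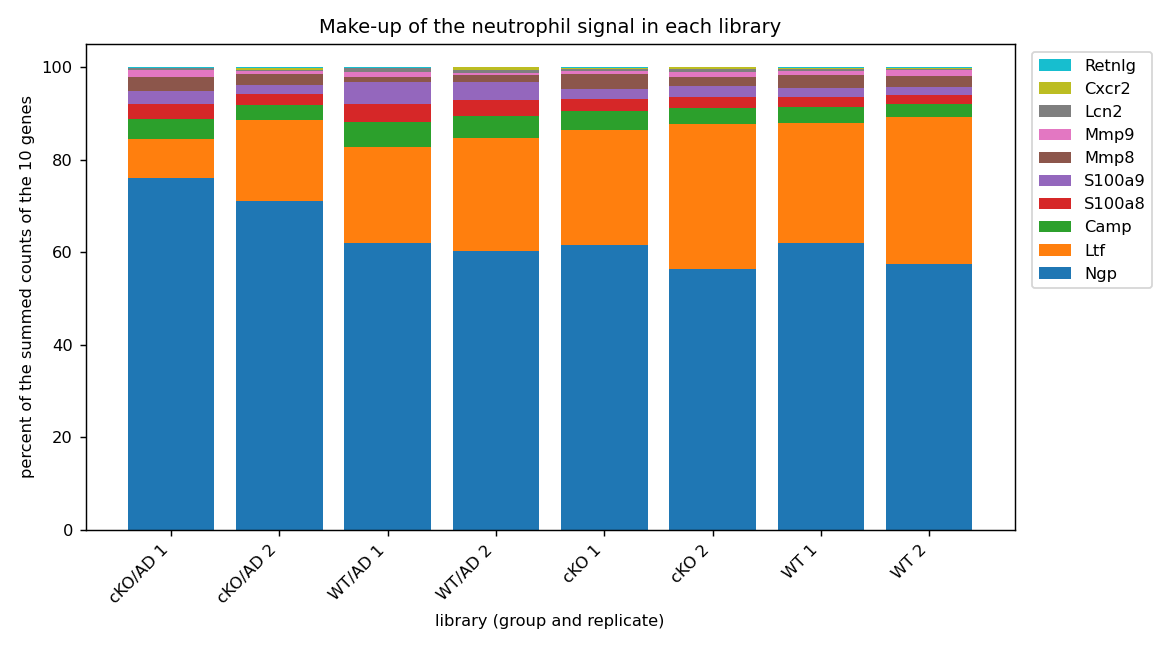
Share of each gene in the summed counts of the 10 neutrophil genes, in percent, for each of the 8 libraries in the order cKO/AD, WT/AD, cKO and WT. Ngp fills 75.9% and 71.1% of the cKO/AD bars and 56.4% to 62.1% of the others, and Ltf is thinnest in cKO/AD at 8.47% and 17.5%.

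Differences between groups were tested with the quasi-likelihood test of edgeR over all 22089 genes, with a call at an adjusted p under 0.05 over all of them. WT/AD against WT, the question being what AD changes with Calhm2 intact, gave a log2 fold change of -1.35 for Ngp (SE 0.173, edgeR adjusted p = 0.0714), -2.45 for Mmp8 (SE 0.335, adjusted p = 0.0928) and -1.74 for Ltf (SE 0.384, adjusted p = 0.276). Mmp9 stood at -1.76 (SE 0.446, adjusted p = 0.313), Camp at -0.70 (SE 0.212, adjusted p = 0.387) and S100a8 at -0.59 (SE 0.227, adjusted p = 0.511). S100a9, at -0.06 (SE 0.248, adjusted p = 0.992), was closest to 0. The scarce genes Retnlg, Cxcr2 and Lcn2 had values of -1.85, -1.09 and -0.33, with SEs of 0.979, 1.44 and 0.582 (adjusted p = 0.633, 0.930 and 0.962). None of the 10 passed, 0 lower and 0 higher, where edgeR called 0.0136% of all tested genes lower and 0.0317% higher. At an unadjusted p under 0.05, 6 of the 10 were lower, against 4.95% of all tested genes. The log2 fold change was negative for 10 of 10, against 50% of all tested genes, and 9 of 10 had both WT/AD libraries below both WT libraries, against 25.9%. The members' median was -1.22, and that of all tested genes 0.

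How many members passed depended on the libraries and the tool. DESeq2 called 4 lower, Ngp, Mmp8, Ltf and Mmp9, against 1.16% of all tested genes. The same 4 passed in edgeR without cKO/AD replicate 1, against 1.85% of tested genes, and without cKO/AD replicate 2, against 1.87%, although neither library belongs to the comparison; all groups share 1 estimate of the spread. In these fits the adjusted p of Ngp was 0.00141 and 0.00159, with the log2 fold change at -1.35 in both.

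In cKO against WT, which asks what the Calhm2 knockout changes without AD, the 10 genes lay closer together. Ngp had a log2 fold change of -1.05 (SE 0.172, edgeR adjusted p = 0.216), Ltf -1.07 (SE 0.378, adjusted p = 0.624), Mmp8 -1.07 (SE 0.320, adjusted p = 0.585) and Mmp9 -1.13 (SE 0.438, adjusted p = 0.682). S100a8 stood at -0.86 (SE 0.228, adjusted p = 0.511), Camp at -0.78 (SE 0.213, adjusted p = 0.520) and S100a9 at -0.64 (SE 0.249, adjusted p = 0.682). Retnlg, Cxcr2 and Lcn2 had values of -1.30, -0.85 and -0.65 (adjusted p = 0.835, 0.985 and 0.893). None of the 10 passed, and edgeR called 0% of all tested genes higher and 0% lower. At an unadjusted p under 0.05, 7 of the 10 were lower, against 3.95% of all tested genes. All 10 had a negative log2 fold change, against 51.3%, and all 10 had both cKO libraries below both WT libraries, against 26% of all tested genes. The median was -0.96, and -0.02 over all tested genes. This comparison and that of WT/AD against WT share the 2 WT libraries, so their values are not independent. Ngp was called lower by DESeq2 (adjusted p = 2.13e-07), which called 0.679% of tested genes lower, and Ngp and Ltf were called lower by edgeR without cKO/AD replicate 1 (0.896% of tested genes) and without cKO/AD replicate 2 (0.969%).

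In AD mice, cKO/AD against WT/AD, the pair that the title of the series names, the 10 genes parted. S100a9 fell by 0.99 (log2 fold change, SE 0.251; edgeR adjusted p = 0.0320), with 25.3 ± 5.21 CPM in cKO/AD against 50.2 ± 4.67 CPM in WT/AD, and was the only member called. Its partner S100a8 stood at 30.4 ± 2.30 CPM in cKO/AD against 42.9 ± 1.82 CPM in WT/AD (log2 fold change -0.49, SE 0.228, adjusted p = 0.170). Mmp8 had the opposite sign, at 30.8 ± 2.43 CPM in cKO/AD against 14.5 ± 3.44 CPM in WT/AD (1.08, SE 0.323, adjusted p = 0.0540), just outside the threshold. The granule genes did not share a direction: the log2 fold change was -0.81 for Ltf (SE 0.376, adjusted p = 0.174), -0.46 for Camp (SE 0.212, adjusted p = 0.167) and 0.22 for Ngp (SE 0.170, adjusted p = 0.408). Lcn2 and Cxcr2 had values of -0.80 and -1.27, the second fitted with a library at 0 counts, and Mmp9 and Retnlg of 0.31 and 1.24 (adjusted p between 0.375 and 0.659).

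For this contrast edgeR called 10.2% of all tested genes lower and 7.82% higher, so 1 of 10 members lower and 0 higher is not more than the background. In all, 6 members had a negative log2 fold change, against 53.5% of tested genes. The libraries did not overlap for 5 members that were lower in cKO/AD and 2 that were higher, Ngp and Mmp8, where 35.1% of all tested genes were lower and 24.3% higher without overlap. The members' median was -0.48, beside -0.14 for all tested genes. The S100a9 call was lost in 7 of 15 other settings, which left out either library of WT, WT/AD or cKO in turn or fitted the 4 libraries of these groups alone, and its adjusted p ranged from 0.00695 to 0.204. DESeq2 called S100a9 lower and Mmp8 higher, beside 15.8% and 13.1% of tested genes. Without cKO/AD replicate 1, S100a9 was the only member called (-1.19, adjusted p = 0.00881; 14.1% of tested genes lower). Without cKO/AD replicate 2, edgeR called 4 members: Mmp8 higher (1.16, adjusted p = 0.018; 17.3% of tested genes) and S100a9, Ltf and Cxcr2 lower (27.9%); the remaining cKO/AD library is then assumed to vary as the other groups do, and it is the one with 0 counts of Cxcr2. With GC content corrected, S100a8 was called too (-0.97, adjusted p = 0.0442), while Camp and Lcn2 turned to positive values of 0.56 and 0.36 from -0.46 and -0.80.

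cKO/AD against cKO, which asks what AD changes without Calhm2, gave Ltf, the member with the smallest adjusted p, at 148 ± 85.5 CPM in cKO/AD against 411 ± 55.3 CPM in cKO (log2 fold change -1.47, SE 0.382, edgeR adjusted p = 0.0807). Ngp stood at 818 ± 45.3 CPM in cKO/AD against 864 ± 74.9 CPM in cKO (-0.08, adjusted p = 0.829), so the ratio between these secondary granule genes differed where the level of Ngp overlapped between the groups. Cxcr2 was further from 0, at -1.51 (adjusted p = 0.573), in a fit that holds the library with 0 counts. Including Cxcr2, the other 8 members had an adjusted p between 0.312 and 0.712. None of the 10 was called, where edgeR called 0.154% of tested genes lower and 0.0634% higher. One, Ltf, was lower at an unadjusted p under 0.05, against 13.9% of tested genes. There were 9 with a negative log2 fold change (54.8% of tested genes) and 4 with both cKO/AD libraries below both cKO libraries (31.1%), and the median was -0.35 beside -0.13 for all tested genes. Ltf was called lower by DESeq2 (-1.44, adjusted p = 0.00244; 8.48% of tested genes) and by edgeR without cKO/AD replicate 1 (-0.98, adjusted p = 0.0345; 4.5% of tested genes). Without cKO/AD replicate 2, Ltf and Cxcr2 were called lower, beside 24.6% of tested genes.

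The interaction is the effect of the knockout in AD mice less its effect without AD, and it asks whether the knockout acts alike with and without AD. Mmp8 had an interaction of 2.15 (SE 0.455, edgeR adjusted p = 0.0653) and Ngp one of 1.27 (SE 0.241, adjusted p = 0.0582), both outside the threshold. Mmp9 followed at 1.44 (SE 0.617, adjusted p = 0.225), Camp and S100a8 lay at 0.32 and 0.37 (adjusted p = 0.590 and 0.560), and S100a9 lay at -0.35 (adjusted p = 0.618). Ltf, Retnlg, Lcn2 and Cxcr2 had values of 0.27, 2.54, -0.15 and -0.42 (adjusted p between 0.319 and 0.959). None of the 10 was called, beside 0.00905% of tested genes higher and 0.0181% lower; 3 had an unadjusted p under 0.05, against 21.9% of tested genes in either direction. Ngp and Mmp8 were called higher by DESeq2 (5.5% of tested genes) and by edgeR without cKO/AD replicate 1 (4.28%). Without cKO/AD replicate 2, Ngp, Mmp8 and Mmp9 were called higher, beside 12.2% of tested genes, and Cxcr2 lower, beside 22.8%.

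**Figure D4:**
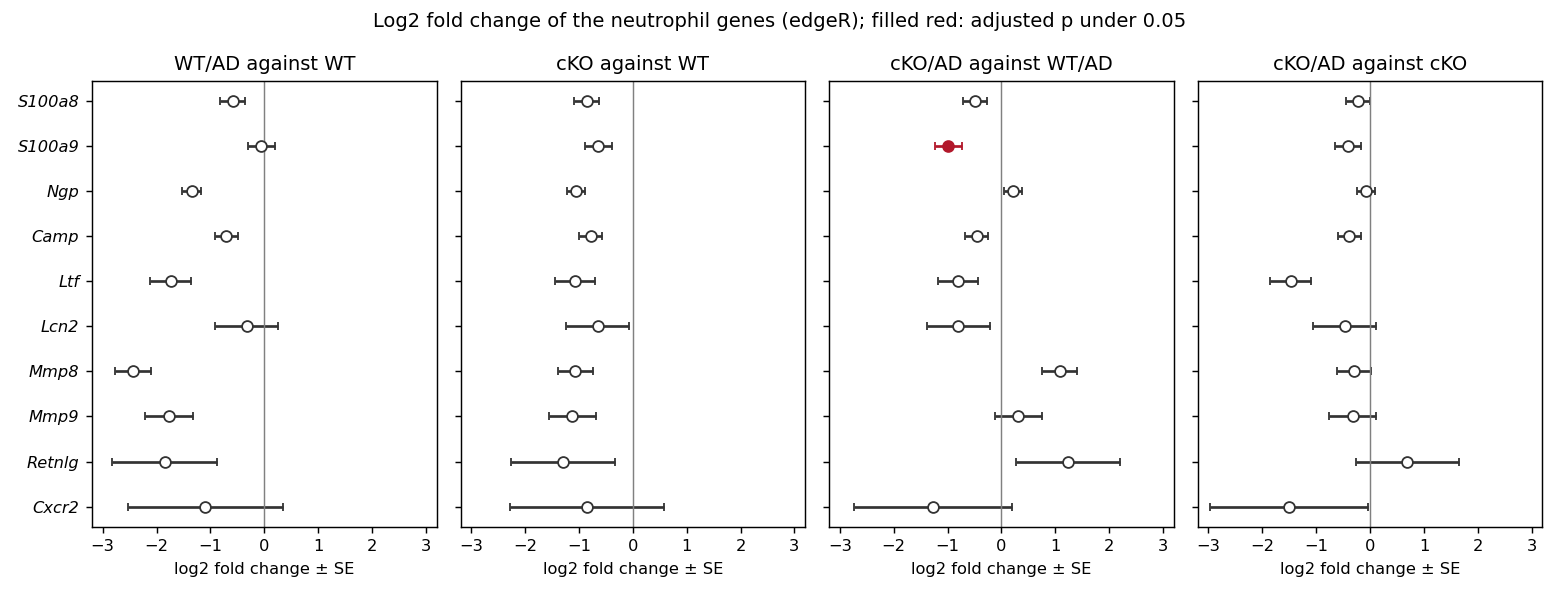
Log2 fold change ± SE (edgeR) of the 10 neutrophil genes in the comparisons named above the panels; filled red points have an adjusted p under 0.05. All points lie at or left of 0 for WT/AD against WT and for cKO against WT, and S100a9 in cKO/AD against WT/AD, at -0.99, is the only filled point.

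Other genes of the neutrophil lineage, taken from lists by granule type and maturity, were compared with these 10. Primary granule and progenitor genes, such as those of myeloperoxidase (Mpo), elastase (Elane) and proteinase 3 (Prtn3), were nearly silent. The 8 listed summed to 8.91 and 12.1 CPM in cKO/AD, 10.8 and 8.31 in WT/AD, 11.6 and 10.8 in cKO, and 22.2 and 21.9 in WT. Mpo itself had 1 and 37 counts in cKO/AD, 38 and 50 in WT/AD, 19 and 54 in cKO, and 118 and 85 in WT. WT again lay highest, on a level far below that of the secondary granule genes. Of the 7 tested, 6 had a negative log2 fold change in WT/AD against WT and 6 in cKO against WT, beside 50% and 51.3% of all tested genes. None of them (0) passed in any of the 5 comparisons.

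The 13 other genes of secondary and tertiary granules summed to 339 and 310 CPM in cKO/AD, 169 and 190 in WT/AD, 303 and 300.5 in cKO, and 560 and 611 in WT. The sum was lowest in WT/AD and highest in WT, and was carried mostly by Cybb, Anxa1 and Cd177. In WT/AD against WT, 10 of 12 tested had a negative log2 fold change, beside 50% of all tested genes, and 0 were called. Cybb, the catalytic subunit of the phagocyte oxidase, stood at -1.52 (SE 0.181, edgeR adjusted p = 0.0639), Anxa1, the annexin A1 gene, at -2.01 (SE 0.260, adjusted p = 0.0721) and Olfm4, the olfactomedin 4 gene, at -2.49 (SE 0.395, adjusted p = 0.140). Cd177, a surface protein of neutrophils, was at 31.1 and 73.2 CPM in cKO/AD, 28.1 and 41.3 in WT/AD, 55.0 and 66.0 in cKO, and 144 and 160 in WT (WT/AD against WT -2.13, adjusted p = 0.211). In cKO against WT, 12 of 12 were negative, beside 51.3% of all tested genes, and 0 were called.

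In cKO/AD against WT/AD, 3 of these 12 rose and 1 fell, beside the 7.82% and 10.2% of all tested genes. The log2 fold change was negative for 8 of the 12, so most of them did not share the order of the sum; Pglyrp1, a peptidoglycan recognition protein gene, was at 2.61 and 3.26 CPM in cKO/AD against 6.36 and 6.49 in WT/AD (-1.13, edgeR adjusted p = 0.191). Cybb rose, with 160 and 135 CPM in cKO/AD against 66.4 and 68.4 in WT/AD (log2 fold change 1.13, SE 0.179, edgeR adjusted p = 0.00868). Anxa1 rose, with 89.9 and 65.0 CPM in cKO/AD against 24.7 and 31.8 in WT/AD (1.45, SE 0.256, adjusted p = 0.0105). Olfm4 rose, with 20.6 and 11.3 CPM in cKO/AD against 4.41 and 4.87 in WT/AD (1.78, SE 0.387, adjusted p = 0.0197). Microglia also express Cybb. Mmp25, a membrane-bound metalloprotease of neutrophils, fell, with 0 counts in both cKO/AD libraries against 93 and 66 in WT/AD (edgeR adjusted p = 0.0104). It was at least 42.1-fold lower when the group is given 3 counts in all. Of the 13 listed, 3 were at 0 counts in each cKO/AD library and 1 in each other library. The cKO/AD libraries also had counts for fewer genes, 18693 and 22088, against 24342 to 25988 in the others. The part of this in the counts of 0 was not tested.

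Of the 21 other genes of mature neutrophils, 20 were in the table and 14 were tested. Their summed level was 95.2 and 144 CPM in cKO/AD, 224 and 223 in WT/AD, 158 and 173 in cKO, and 246 and 260.4 in WT. Negative log2 fold changes were seen for 13 of 14 in WT/AD against WT and 14 of 14 in cKO against WT, with 0 called in either. Over all tested genes the negative shares were 50% and 51.3%. Csf3r, the receptor of the granulocyte growth factor G-CSF, which microglia also express, supplied most of this sum. In cKO/AD against WT/AD the 14 genes split, with 8 positive and 6 negative values, beside 53.5% of all tested genes negative. Of the 14, 0 rose and 2 fell, where edgeR called 7.82% of all tested genes higher and 10.2% lower. Csf3r fell, with 47.3 and 102 CPM in cKO/AD against 199 and 187 in WT/AD (-1.37, SE 0.333, edgeR adjusted p = 0.0283). Asprv1, a protease gene, fell with 0 counts in cKO/AD against 24 and 42 in WT/AD, at least 17.5-fold lower (adjusted p = 0.0137). Of the 20 genes in the table, 11 and 7 were at 0 counts in the cKO/AD libraries, against 3 to 6 in the other libraries. The formyl peptide receptor gene Fpr1, at 9.54 and 6.87 CPM in cKO/AD against 2.15 and 2.65 in WT/AD (1.77, adjusted p = 0.0672), Fpr2, Il1r2 and Mrgpra2b had no overlap in the other direction and were not called. These were 4 of the 14, beside 24.3% of all tested genes higher without overlap. Another 4 were lower without overlap, beside 35.1% of all tested genes. Ly6g, whose product is the surface antigen that defines mouse neutrophils, was at 5.90 and 1.12 CPM in cKO/AD, 2.78 and 2.42 in WT/AD, 2.92 and 3.82 in cKO, and 4.70 and 5.84 in WT. Ly6g was thus detected in all 8 libraries, and its cKO/AD libraries spanned the range of the others. Cxcr1, Stfa1, Stfa2, Stfa2l1, Stfa3 and Mrgpra2a were too low to be tested.

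**Figure D5:**
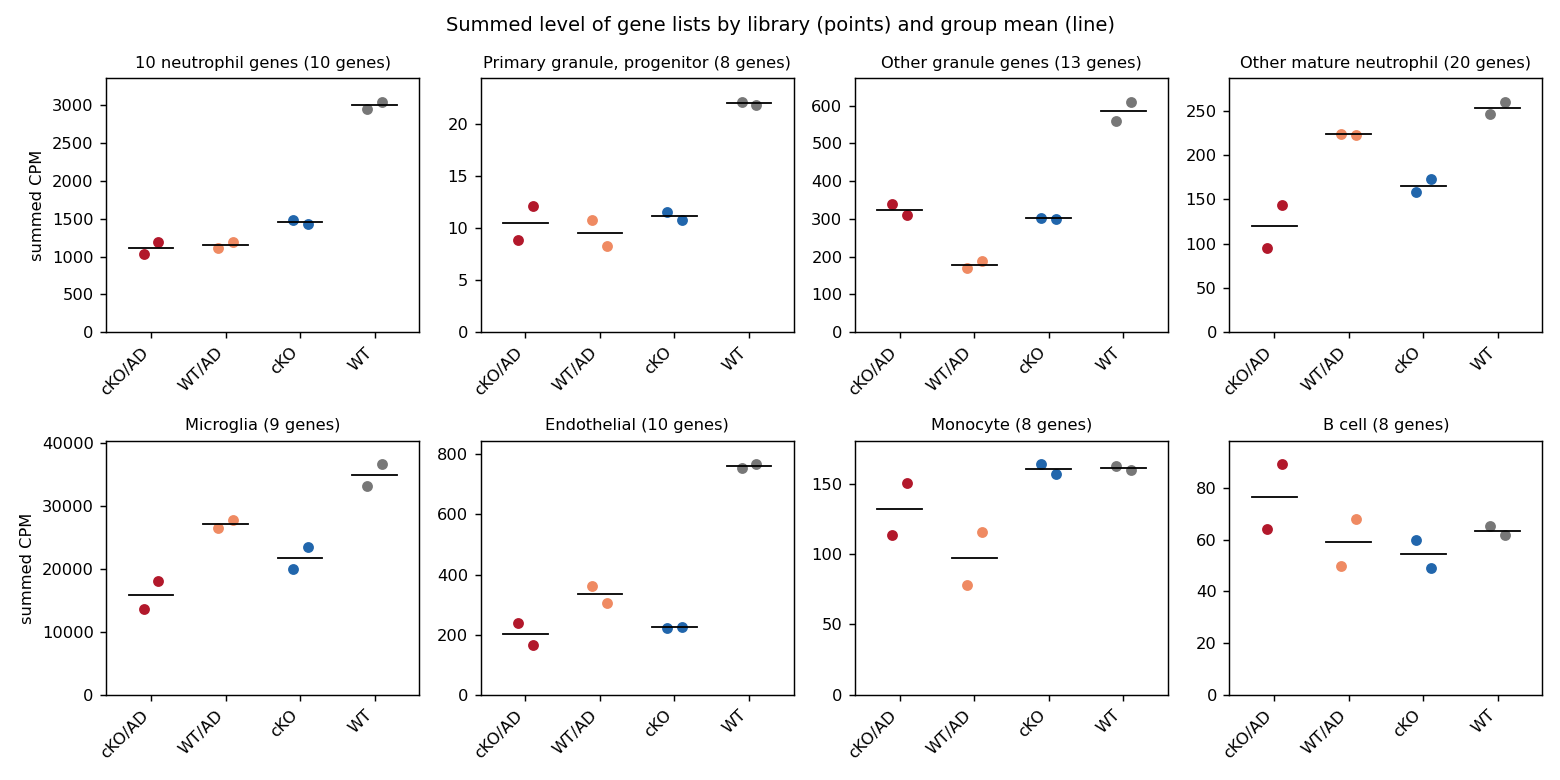
Summed CPM of gene lists (number of genes in the table in brackets) in the 8 libraries, with groups in the order cKO/AD, WT/AD, cKO and WT; points are libraries and lines are group means. The primary granule genes stay at or below 22.2 CPM, the other secondary and tertiary granule genes reach 560 and 611 CPM in WT, and the endothelial markers are likewise highest in WT at 756 and 767 CPM.

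Of the ligands that draw or hold neutrophils, most were low. Only Cxcl1, Cxcl5 and Cxcl12 of 8 listed were tested; Cxcl2, Cxcl3, Ppbp, Csf3 and Il17a were below the filter. Cxcl1, a ligand of Cxcr2, had 0 counts in all 4 knockout libraries, against 59 and 9 in WT/AD and 38 and 27 in WT. By summed group counts it was at least 18-fold lower in cKO/AD against WT/AD and at least 22.8-fold lower in cKO against WT. Again 3 counts in all were given to the group at 0. The first bound rests mostly on WT/AD replicate 1, at 2.34 CPM against 0.356 CPM in WT/AD replicate 2. Cxcl1 was called in neither comparison (edgeR adjusted p = 0.0684 and 0.587). The exception was Cxcl12, the ligand of Cxcr4 that holds neutrophils in the marrow. It fell in cKO/AD, with 8.29 and 20.5 CPM in cKO/AD against 42.9 and 68.0 in WT/AD (-1.94, SE 0.435, adjusted p = 0.0217). In cKO it stood at 34.7 and 46.4 CPM against 108 and 102 CPM in WT (-1.37, adjusted p = 0.587).

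Among 8 receptors, partners and inhibitors of the members' products, 3 fell and 0 rose in cKO/AD against WT/AD, where 10.2% of all tested genes fell and 7.82% rose, and 0 were called in the other comparisons. Slc22a17, the gene of a lipocalin 2 receptor, fell, with 100.1 and 309 CPM in cKO/AD against 1609 and 1349 in WT/AD (-2.85, SE 0.491, edgeR adjusted p = 0.0101). Lrp1, an endocytic receptor that takes up lactoferrin and matrix proteases, fell, with 102 and 215 CPM in cKO/AD against 620 and 514 in WT/AD (-1.84, SE 0.336, adjusted p = 0.0117). Timp2, an inhibitor of metalloproteases, fell, with 248 and 468 CPM in cKO/AD against 724 and 746 in WT/AD (-1.04, SE 0.291, adjusted p = 0.0445). Each of these genes is widely expressed in brain cells. In the same comparison 4 of the 9 microglial markers fell, Tmem119, Cx3cr1, Csf1r and Olfml3, with log2 fold changes of -1.60, -2.03, -1.75 and -1.14 (edgeR adjusted p between 0.0113 and 0.0334), and their part in these differences was not tested; with GC content corrected Tmem119 turned sign (0.16). All 10 calls among these non-member genes in cKO/AD against WT/AD were lost with the 4 libraries of these groups alone and without either WT/AD library, and those of Olfm4, Cybb, Csf3r, Lrp1 and Timp2 were also lost with GC content corrected (log2 fold change 1.09, 0.486, -0.50, -0.22 and -0.24). The calls of Olfm4, Csf3r, Cxcl12 and Timp2 were lost without either WT library, and those of Csf3r and Timp2 also without either cKO library.

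Lists of other blood cells followed the neutrophil genes in part. Erythrocyte genes, 7 in the table, summed to 6.30 and 6.25 CPM in cKO/AD, 15.3 and 10.8 in WT/AD, 21.8 and 18.8 in cKO, and 12.4 and 11.4 in WT, so that cKO was highest. Monocyte genes, 8, summed to 113 and 150.3 CPM in cKO/AD, 78.0 and 116 in WT/AD, 164 and 157 in cKO, and 162 and 159 in WT, with cKO and WT overlapping. In WT/AD against WT, 8 of 8 monocyte genes had a negative log2 fold change, 6 of them without overlap, beside 50% and 25.9% of all tested genes. In cKO against WT 6 of 8 were negative, beside 51.3%, with 0 called in either comparison. B cell genes, 8, lay between 49.2 and 89.1 CPM and were highest in cKO/AD replicate 2. T and NK cell genes, 9, lay between 1.02 and 7.08 CPM, and platelet genes, 8, between 7.70 and 14.4 CPM. Mast cell and basophil genes, 7, summed to 5.85 and 1.83 CPM in cKO/AD, 3.42 and 0.831 in WT/AD, 0.892 and 1.40 in cKO, and 9.03 and 5.09 in WT. Of 5 tested, 4 had a negative log2 fold change in WT/AD against WT and 5 in cKO against WT, beside 50% and 51.3% of all tested genes. In each comparison 4 were lower without overlap, beside 25.9% and 26%, with 0 called. Of the 7, 5 and 3 were at 0 counts in the cKO/AD libraries, 4 in each WT/AD and cKO library, and 0 and 1 in the WT libraries.

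Markers of non-blood cells moved with the neutrophil genes in part. The 10 endothelial markers were present in all libraries and summed to 239 and 165 CPM in cKO/AD, 363 and 307 in WT/AD, 224 and 227 in cKO, and 756 and 767 in WT. All 10 had a negative log2 fold change in WT/AD against WT and in cKO against WT, with 0 called in either. Over all tested genes the negative shares were 50% and 51.3%. At an unadjusted edgeR p under 0.05, 7 and 9 of the 10 were lower, beside 4.95% and 3.95% of all tested genes. Without overlap 9 and 10 were lower, beside 25.9% and 26%. Their medians were -1.26 and -1.74, beside -1.22 and -0.96 for the neutrophil genes. In cKO/AD against WT/AD 4 fell, Cldn5, Esam, Egfl7 and Ly6c1, where edgeR called 10.2% of all tested genes lower. The 9 astrocyte markers summed to 910 and 1072 CPM in cKO/AD, 1147 and 1317 in WT/AD, 974 and 976 in cKO, and 1587 and 1710 in WT. All 9 had a negative log2 fold change in WT/AD against WT and in cKO against WT, with 0 called. In each comparison 8 of the 9 were lower without overlap, beside the same shares of all tested genes as above. WT was highest for both lists, as for the neutrophil genes. The sum of the microglial markers was highest in WT too, but not each of them. Csf1r, Olfml3 and Fcrls had their highest group mean in WT/AD and Gpr34 in cKO/AD. In cKO against WT, 9 of 9 microglial markers had a negative log2 fold change, beside 51.3% of all tested genes. All 9 had both cKO libraries below both WT libraries, beside 26%. In WT/AD against WT, 6 of 9 were negative and 6 were lower without overlap, beside 50% and 25.9%. The 7 choroid plexus markers summed to 845 and 597 CPM in cKO/AD, 332 and 439 in WT/AD, 478 and 374 in cKO, and 496 and 543 in WT. Enpp2, also a gene of oligodendrocytes, supplied most of that sum and rose in cKO/AD, with 784 and 565 CPM in cKO/AD against 262 and 364 in WT/AD (1.11, edgeR adjusted p = 0.0229). Ttr, the transthyretin gene, fell, with 14.0 and 8.97 CPM in cKO/AD against 31.6 and 30.1 in WT/AD (-1.42, adjusted p = 0.0245). In the same comparison the astrocyte marker Clu fell and the monocyte marker Ms4a4c rose, where 10.2% of all tested genes fell and 7.82% rose. All 12 calls among markers of microglia and other cells were lost with the 4 libraries of these groups alone and without WT/AD replicate 1. Leaving out WT/AD replicate 2 kept 3 of them (Cldn5, Esam and Ly6c1). Leaving out a WT library kept 6, a cKO library 7, and a cKO/AD library all 12. With GC content corrected, Cx3cr1, Ly6c1 and Ttr were still called, and Tmem119, Cldn5 and Clu turned sign without a call. The part of these markers in the differences of the neutrophil genes was not tested.

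Across the 8 libraries the members followed each other to different degrees. The Pearson correlation of a member's log2 CPM with the mean profile of the other 9 was 0.945 for Camp, 0.90 for Ngp, 0.898 for S100a8, 0.861 for Ltf, 0.790 for Mmp9, 0.652 for Mmp8, 0.608 for S100a9, 0.574 for Lcn2, 0.505 for Cxcr2 and 0.474 for Retnlg. The scarce genes Lcn2, Cxcr2 and Retnlg were at the low end, together with S100a9 and Mmp8. These values share their libraries and depth and carry no p.

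Of 14058 genes ranked with a mean of at least 1 CPM, the 10 non-members closest to the members' mean profile over the 8 libraries were B4galt4 (r = 0.967), Fbxo28 (0.966), Klf9 (0.964), Fabp7 (0.962), Ptprb (0.962), Slc6a6 (0.958), Serpinf1 (0.958), Rflnb (0.956), Srbd1 (0.955) and Glrx (0.955). B4galt4, at the top, was at 60.5 and 59.5 CPM in cKO/AD, 65.6 and 75.2 in WT/AD, 73.6 and 78.8 in cKO, and 111 and 121 in WT. Ptprb, an endothelial phosphatase gene, was at 33.1 and 25.4 CPM in cKO/AD, 32.6 and 35.8 in WT/AD, 31.8 and 39.7 in cKO, and 118 and 107 in WT. Both shared the gap between WT and the other groups, and neither is a neutrophil gene.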

How the data were processed

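The deposited table holds the authors' raw read counts, 1 whole number per gene and library, with no normalisation. RNA came from Trizol extracts and libraries from an Illumina TruSeq kit, per the labels' protocols. Per the submitters' processing notes the build was mm9. Aligner, counter and strand were not given in the sources used here, so reads of overlapping genes cannot be told apart. No column of per-sample values was left unused (0).

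Counts were fitted with edgeR 4.0.16 in R 4.3.3: filterByExpr by group (22089 genes), TMM scaling, a group means model on all 8 libraries with 4 residual degrees of freedom, glmQLFTest (two-sided) and Benjamini-Hochberg adjustment over all tested genes. SEs were derived from the fold change and F. Exon length and GC content came from GENCODE M21, matched by identifier without version (55240 matched, and 54587 with the version). The alternatives were DESeq2 1.42.0, its size factors in edgeR, no filter, only the groups compared, a replicate block, a GC correction (loess, span 0.4; 99.9% of tested genes had a GC value) with and without the block, and each library left out. The edgeR step was tested on simulated data.

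Named are all 10 members, from each list any gene that passed and, from the neutrophil, ligand and receptor lists, some of the up to 5 with the smallest adjusted p, and the 10 nearest in pattern; Mpo, Ly6g, Pglyrp1, Fcrls, Gpr34, Fpr2, Il1r2 and Mrgpra2b were added after their values were seen. One listed gene is not reported here. The members and lists were chosen with earlier results of these data known. Counts of 0 were bounded by 3 counts; floors cover counting error only. Same-numbered libraries did not deviate together (r between -0.0334 and 0.0611), and replicates differed beyond sampling noise (chi-square per degree of freedom at least 19.4).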

Additional observations from a re-analysis of the deposited data

How the results depend on the processing

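With n = 2 libraries a group and 4 residual degrees of freedom, the number of genes edgeR called depended strongly on the setting, and the cause was not tested. DESeq2 called 531 genes in WT/AD against WT, 268 in cKO against WT, 6392 in cKO/AD against WT/AD, 3279 in cKO/AD against cKO and 2747 for the interaction, against 10, 0, 3980, 48 and 6. Of the members it called 4, 1, 2, 1 and 2 in the same order, against 0, 0, 1, 0 and 0. Without the filter, edgeR called 278, 142, 3057 and 2670 genes in the comparisons other than cKO/AD against WT/AD, and 4, 2, 3, 1 and 2 members in all 5. The number of genes tested without the filter is not given here, so these member counts have no share of all genes beside them. With only the groups compared, it called 1433, 202, 0 and 0 genes and 5, 2, 0 and 0 members in the first 4. DESeq2 size factors gave 2 genes in cKO against WT, 20 for the interaction, and 2 members in cKO/AD against WT/AD. The number of all genes called in cKO/AD against WT/AD with these size factors is not given here. Those 2 members thus have no share of all genes beside them. The GC correction gave 16 genes and 1 member (Ngp, adjusted p = 0.0434) in WT/AD against WT, 1 gene in cKO against WT, 1411 genes and 2 members in cKO/AD against WT/AD, and 25 genes in cKO/AD against cKO.

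The replicate block gave 3 genes in WT/AD against WT, 22 in cKO/AD against cKO and 1 for the interaction, and with the GC correction 1149 in cKO/AD against WT/AD, 17 in cKO/AD against cKO and 1 for the interaction; it changed no call of a member. The labels do not say whether the replicate numbers pair the libraries, and same-numbered libraries did not deviate together (r between -0.0334 and 0.0611).

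Leaving out each library in turn gave 1 to 835 genes in WT/AD against WT, 0 to 318 in cKO against WT, 0 to 9977 in cKO/AD against WT/AD, 0 to 8369 in cKO/AD against cKO and 1 to 7719 for the interaction. Members called ranged over 0 to 4, 0 to 2, 0 to 4, 0 to 2 and 0 to 4 in the same order. In cKO/AD against WT/AD edgeR called no member without either WT library, either WT/AD library or cKO replicate 1, and only Mmp8 (1.08, adjusted p = 0.05) without cKO replicate 2.

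Some log2 fold changes turned sign, none of them a member's call. With the GC correction, and with the block added, these were Camp (0.56 and 0.50) and Lcn2 (0.36 and 0.28) in cKO/AD against WT/AD; Ngp (0.0941 and 0.0942), Camp (0.24 and 0.21), Lcn2 (0.29 and 0.17) and Mmp9 (0.53 and 0.41) in cKO/AD against cKO; S100a8 (-0.0529 and -0.0438) and Lcn2 (0.84 and 0.73) for the interaction; and S100a9 in WT/AD against WT (0.17 and 0.17). Among called markers of other lists, Tmem119 (0.16 and 0.14), Cldn5 (1.03 and 0.996) and Clu (0.58 and 0.56) turned sign in cKO/AD against WT/AD and lost the call. With libraries left out, the ranges that crossed 0 were -0.16 to 0.0551 for S100a9 in WT/AD against WT and -0.14 to 0.76 for Mmp9 in cKO/AD against WT/AD. In cKO/AD against cKO they were -0.16 to 0.0124 for Ngp, -0.65 to 0.17 for Mmp8, -0.80 to 0.0318 for Mmp9 and -0.34 to 1.28 for Retnlg. For the interaction they were -0.49 to 0.76 for Ltf, -0.83 to 0.32 for Lcn2 and -8.75 to 0.74 for Cxcr2, the lowest value being a fit against the library with 0 counts and no bound. All 10 members kept a negative sign in cKO against WT under all settings run, and 9 did in WT/AD against WT.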
